A study of Mus musculus with 7 samples.

Results

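The effect of familial Alzheimer's disease transgenes (FAD) on gene expression was compared between hippocampus and cortex of the same mice. Bulk mcSCRB-seq, which tags the 3' end of each transcript with a barcode per well, gave a count table for both regions. The values set side by side were those of 14 FAD mice, 7 injected with IgG and 7 of the CD38 group, and those of 8 wild-type (WT) mice given PBS. For each gene the difference between hippocampus and cortex was taken within each mouse and then compared between FAD and WT mice, which is the genotype by region term of the count model and is called region dependence below. The members were all wells of mice that had both regions and the same injection in the well name and in the sample sheet, 44 of the 47 wells in the series and 22 of its 24 mice. A FAD mouse named IgG in one source and CD38 in the other was left out, as was a WT mouse with a cortex well only. Genotype and injection differed together, since every FAD mouse was labelled IgG or CD38 and every WT mouse PBS, and the contributions of genotype and injection cannot be told apart. The labels give neither the line or promoters of the FAD transgenes nor the age of the mice.

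Transgenes of this kind drive the release of amyloid-beta, whose deposits form in both regions and are surrounded by microglia and reactive astrocytes. Microglia near deposits are known to express genes of lipid handling, lysosomes and antigen presentation, while reactive astrocytes increase cytoskeletal and secreted proteins. MHC class II molecules present peptides to CD4 T cells, are held at low level in resting microglia and depend on the invariant chain Cd74 for their assembly. Bulk tissue holds all of these cells, so fewer cells of a type and less RNA per cell cannot be told apart in any value below.

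Wells held between 1270918 and 5101368 counts. The summed level of 18 hippocampal markers had a median of 1370 CPM (counts scaled to a fixed library total) in FAD hippocampus and 706 CPM in FAD cortex, against 1570 and 679 CPM in the same regions of WT mice, with no overlap between regions. A few wells stood apart. The hippocampus well of FAD CD38 replicate 4 had 1.25% mitochondrial counts, where every other well had at least 4.11%, and the hippocampus well of WT PBS replicate 9 had 24.1% ribosomal RNA. Choroid plexus markers, from the epithelium that makes cerebrospinal fluid, reached a sum of 16000 CPM in that same hippocampus well of FAD CD38 replicate 4 and of 9140 CPM in the hippocampus well of FAD IgG replicate 4. The median was 154 CPM over the 14 FAD hippocampus wells and 157 CPM over the 8 WT ones, of which the highest had 402 CPM. Without FAD CD38 replicate 4 32 of the 33 called genes described next stayed called, and without FAD IgG replicate 4 31 did.

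Of 13331 genes tested, 27 (0.203%) had a higher and 6 (0.045%) a lower hippocampus minus cortex difference in FAD than in WT mice, at a Benjamini-Hochberg adjusted p of 0.05 by edgeR's quasi-likelihood test with each mouse as its own block. These are the genes said to be called. At an unadjusted p of 0.05, 1735 genes (13%) passed. The 27 higher genes were led by Endou, S100a6 and Lgals1, and included the antigen presentation genes Cd74, H2-Eb1 and H2-T23, and the leukocyte or microglial genes Cd52, Spp1, Srgn, Lsp1 and Aif1. Their log2 differences ran from 0.57 to 2.22 with a median of 1.11. The 6 lower genes, Serpina3n, Gm5124, Ccdc6, Crhbp, Lpl and Rbm24, had a median of -0.71. In all 7 library pools the mean difference of the FAD mice lay above that of the WT mice for 22 of the 27 higher genes. It lay below in all 7 for 5 of the 6 lower ones. The genes were called from these same mice, so these counts are a description and not a separate test. No such count was taken over all genes tested. In a fit without the mouse block 9 higher and 1 lower remained. With a region term for each pool 19 were higher and 6 lower, and 20 of the 33 stayed called. The 13 not called there were Aif1, Arhgap25, Fxyd1, Syndig1l, Timp1, Aspg, Gpx1, Gng5, S100a10, Hba-a1, Sfrp5, Crhbp and Rbm24. The count also rested on single mice, with 58 higher and 32 lower without WT PBS replicate 2, against 17 and 2 without WT PBS replicate 1.

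**Figure D1:**
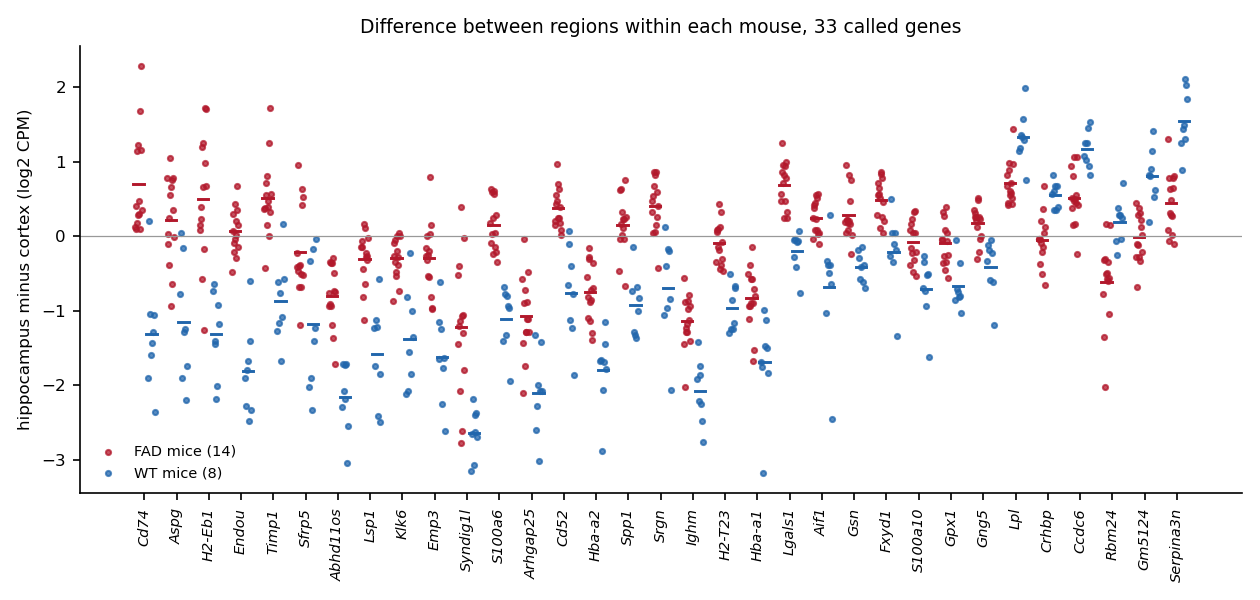
Hippocampus minus cortex in log2 CPM for each mouse, for the 33 called genes ordered by fitted region dependence, with FAD mice in red left of WT mice in blue and bars at the group means. For Endou, S100a6, Lgals1 and H2-T23 every FAD mouse lies above every WT mouse, and the WT means of the higher genes lie below 0.

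Endou, which encodes an endoribonuclease that cuts RNA at uridines, had the smallest p. In hippocampus its level had a lowest, median and highest value of 7.8, 13.6 and 22 CPM in FAD mice, against 1.15, 1.84 and 2.72 CPM in WT mice. In cortex the same values were 8.1, 13.1 and 16.2 CPM in FAD mice and 3.68, 8.43 and 11.5 CPM in WT mice. Hippocampal levels of FAD and WT mice were thus fully apart, while the cortical levels overlapped. Within mice, hippocampus minus cortex ran from -0.48 to 0.67 with a median of 0.04 on the log2 scale in FAD mice, and from -2.48 to -0.60 with a median of -1.85 in WT mice. All 14 FAD mice lay above all 8 WT mice. The fitted region dependence was 2.11 ± 0.23 (SE, adjusted p = 2.91e-07, edgeR), beside a rise of 2.85 ± 0.18 in hippocampus and of 0.64 ± 0.18 in cortex in the separate fits of each region. In the FAD mice both regions stood near the same level, while in the WT mice the level was higher in cortex.

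Klk6, a secreted serine protease made mostly by oligodendrocytes, rose in both regions. Its hippocampal level was 10.1, 17.7 and 40.9 CPM (lowest, median and highest) in FAD mice, against 1.07, 1.97 and 3.15 CPM in WT mice. Its cortical level was 14.2, 20.5 and 34.6 CPM in FAD mice, against 3.38, 6.3 and 8.69 CPM in WT mice. FAD and WT wells did not overlap in either region. The within-mouse differences had medians of -0.27 in FAD and -1.45 in WT mice and overlapped, since 6 of 14 FAD mice lay above the highest WT mouse. The region dependence of 1.36 ± 0.24 (SE, adjusted p = 0.0018, edgeR) is a ratio of folds: on the CPM scale itself FAD exceeded WT by 16.6 in hippocampus and 16.3 in cortex, a difference of 0.295 CPM between regions. Without the mouse block its adjusted p was 0.0557.

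**Figure D2:**
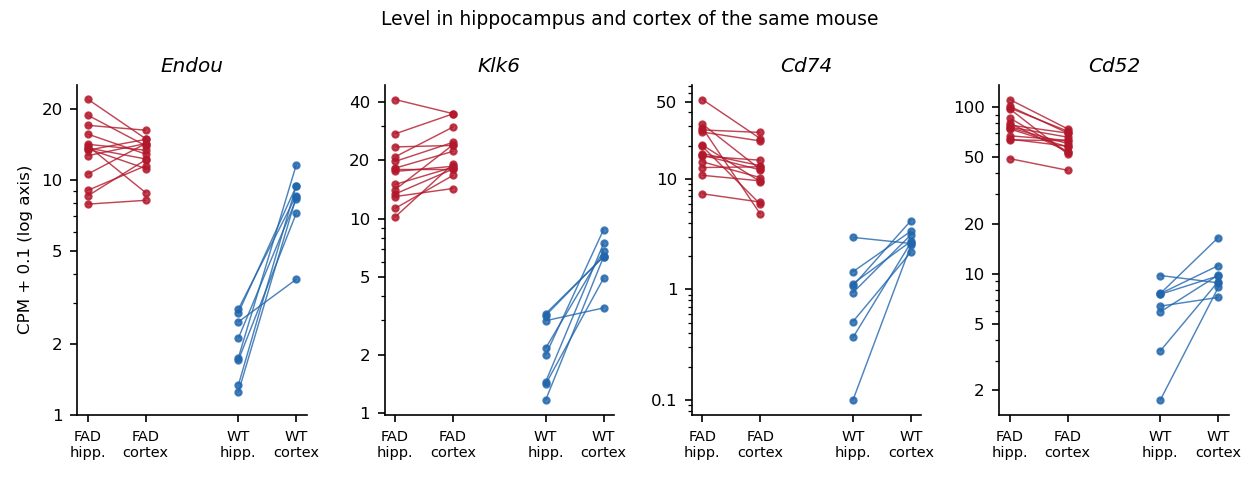
Level of Endou, Klk6, Cd74 and Cd52 in CPM plus 0.1 on a log axis, with a line joining hippocampus (hipp.) and cortex of each mouse, for 14 FAD mice in red and 8 WT mice in blue. Lines of WT mice mostly climb toward cortex, while those of FAD mice are near level for Endou and mostly fall toward cortex for Cd74 and Cd52.

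Cd74, H2-Eb1 and H2-T23 of antigen presentation rose in both regions and further in hippocampus. Cd74, the invariant chain that carries MHC class II molecules to the endosome, was at 7.25, 18.2 and 52.3 CPM in FAD hippocampus (lowest, median and highest), against 0, 0.91 and 2.86 CPM in WT hippocampus. A count of 0 stood in 1 WT well only, where 3 counts would equal 1.23 CPM. In cortex it was at 4.72, 12.1 and 26.3 CPM in FAD mice and 2.08, 2.6 and 4.1 CPM in WT mice. In scaled log2 CPM every FAD mouse had more Cd74 in hippocampus than in cortex, by 0.10 to 2.29, against 1 of 8 WT mice. In plain CPM 1 FAD mouse, FAD CD38 replicate 4, was the other way with 12.6 in hippocampus and 12.8 in cortex. Its region dependence was 2.22 ± 0.41 (SE, adjusted p = 0.00342, edgeR).

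H2-Eb1, a class II beta chain, had a region dependence of 2.17 ± 0.44 (adjusted p = 0.0184, edgeR), with a median of 17.3 CPM in FAD hippocampus against 1.33 CPM in WT hippocampus, and 9.55 CPM in FAD cortex against 4.42 CPM in WT cortex. Its call was lost in 9 of 46 alternative fits. Among these were the fits without WT PBS replicate 4, 6 or 9 and without pool 5, 8 or 9. The others had no mouse block, no filter on low counts, or summed striatal markers as a covariate. Without replicate 9 the value was 2.18 (adjusted p = 0.0557, edgeR). Of the class II list, 9 of 12 genes were tested. Of these 2 were called higher and 0 lower, beside 0.203% and 0.045% of all genes tested. The median region dependence was 0.62, beside -0.02 over all genes tested. The alpha chain H2-Aa (1.84 ± 0.52, adjusted p = 0.155) and H2-Ab1 (1.5 ± 0.44, adjusted p = 0.171) did not pass edgeR's test. H2-DMa, which loads peptides, stood at 0.03. All 9 rose in both regions, where 5.75% of all genes tested rose in hippocampus and 5.57% in cortex. The test of the difference thus bore on the size of a shared rise.

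H2-T23, the non-classical class I molecule Qa-1, was at 18.9, 28.5 and 41.7 CPM in FAD hippocampus, against 8.26, 9.54 and 14.3 CPM in WT hippocampus. In cortex FAD mice had 17.5, 30.1 and 39.2 CPM and WT mice 16.4, 20.5 and 22.5 CPM. Hippocampus minus cortex did not overlap between the genotypes, from -0.46 to 0.43 in FAD mice and from -1.30 to -0.50 in WT mice, and the region dependence was 0.91 ± 0.15 (adjusted p = 0.00108, edgeR). It was the only called gene of 15 tested in the class I list of 17, beside 0.203% of all genes called higher. The median of that list was 0.43. B2m, the light chain of class I (0.43 ± 0.13, adjusted p = 0.156), and the immunoproteasome subunit Psmb8 (0.60 ± 0.17, adjusted p = 0.128) did not pass. MHC genes have close relatives, and the sources used here do not say how reads matching several were counted, which leaves values of single H2 genes uncertain.

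The promoters of both called MHC genes with an entry in RefSeq (assembly GRCm38.p6) are shown because genes of both classes were called. Each sequence is the 250 bases before the start on the gene's strand, with CCAAT boxes (CCAAT on either strand) and interferon-stimulated response elements (GAAA, any 2 bases and GAAA again, on either strand) in capitals. The H2-Eb1 sequence lies at chr17:34305617-34305866 on the + strand and that of H2-T23 at chr17:36032702-36032951 on the - strand.
H2-Eb1: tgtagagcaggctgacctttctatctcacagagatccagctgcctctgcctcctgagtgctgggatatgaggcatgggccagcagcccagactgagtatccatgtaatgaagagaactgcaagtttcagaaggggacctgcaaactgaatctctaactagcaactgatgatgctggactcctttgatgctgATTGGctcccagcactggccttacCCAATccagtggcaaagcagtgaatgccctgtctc
H2-T23: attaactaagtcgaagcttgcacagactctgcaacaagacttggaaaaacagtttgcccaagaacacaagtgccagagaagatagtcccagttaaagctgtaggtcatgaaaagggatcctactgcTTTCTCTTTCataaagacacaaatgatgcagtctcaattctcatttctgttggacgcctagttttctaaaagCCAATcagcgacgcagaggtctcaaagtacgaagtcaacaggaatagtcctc
H2-Eb1 held 2 CCAAT boxes, and H2-T23 held 1 CCAAT box and 1 response element. Over the window of 300 bases that also takes in 50 bases after the start, 23 of the 33 called genes had an entry. A response element was found in 4 of these (H2-T23, Spp1, Srgn and Aif1), beside 3.99% of all genes with a window, and a CCAAT box in 11, beside 41.1%. The gamma-activated site TTCNNNGAA stood in 2, beside 9.55%, and the AP-1 site TGANTCA in 0, beside 8.97%. These matches describe letters in the windows and were read without a test.

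Microglial and leukocyte genes made up a further group. Cd52, a small surface glycopeptide of leukocytes, was at 49.0, 76.9 and 111 CPM in FAD hippocampus and 1.65, 6.87 and 9.67 CPM in WT hippocampus. In cortex it was at 41.7, 61.6 and 74.0 CPM in FAD mice and 7.12, 9.26 and 16.4 CPM in WT mice. FAD and WT wells were apart in both regions, with rises of 3.70 ± 0.21 in hippocampus and 2.63 ± 0.14 in cortex. Its region dependence was 1.11 ± 0.19 (adjusted p = 0.00112, edgeR), and 13 of 14 FAD mice lay above every WT mouse.

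Spp1, the secreted phosphoprotein osteopontin, had medians of 105 CPM in FAD hippocampus against 9.21 CPM in WT hippocampus, and of 92.3 CPM in FAD cortex against 18.3 CPM in WT cortex. Its region dependence was 1.06 ± 0.18 (adjusted p = 0.00155, edgeR). Srgn, the core protein of an intracellular proteoglycan of blood cells, had the same value of 1.06 ± 0.19 (adjusted p = 0.00297). Among genes chosen after their values were seen, Lsp1, a leukocyte actin-binding protein, had 1.41 ± 0.26 (adjusted p = 0.00335, edgeR). Aif1, which encodes the microglial marker Iba1, had 0.81 ± 0.17 (adjusted p = 0.0174, edgeR), and its WT differences included -2.46 in replicate 9. Without that mouse the value was 0.68. Markers of other immune cells were summed beside these. The 20 markers of T cells and other leukocytes summed to 13.3 to 33.3 CPM (median 28.5) in FAD hippocampus and 8.64 to 20.9 CPM (median 15.3) in WT hippocampus, and to medians of 80.5 CPM in FAD cortex and 77.8 CPM in WT cortex. The 11 markers of border macrophages had medians of 42.5 CPM in FAD hippocampus against 30.9 CPM in WT hippocampus, and 56.9 CPM in FAD cortex against 42.7 CPM in WT cortex. All had counts in each group except 1 leukocyte marker in WT hippocampus. Of these lists 4 and 2 genes were tested and 0 were called, and their part in the immune gene results was not tested.

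The genes of plaque-associated microglia rose in both regions with few exceptions. Of 38 genes 36 were tested, and 35 rose in hippocampus and 35 in cortex, where 5.75% and 5.57% of all genes tested rose. For region dependence 2 of the 36 were called higher (Cd52 and Spp1) and 1 lower (Lpl), beside 0.203% higher and 0.045% lower over all genes tested, with a median of 0.24. Cst7, a cysteine protease inhibitor, rose by 6.59 ± 0.27 in hippocampus and 6.78 ± 0.25 in cortex, and its region dependence was -0.10 with a 95% interval from -0.69 to 0.49. Trem2, a lipid-sensing receptor of microglia, had 0.22 (interval -0.10 to 0.53), and its adaptor Tyrobp 0.38 (interval 0.11 to 0.66, adjusted p = 0.226, edgeR). Clec7a, a receptor for beta-glucans, stood at -1.57 ± 0.63 (adjusted p = 0.289) and the NADPH oxidase subunit Cybb at 1.87 ± 0.51 (adjusted p = 0.117), neither past the threshold.

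Lpl, the lipase that splits triglycerides of lipoproteins, was called in the lower direction at -0.63 ± 0.14 (adjusted p = 0.0263, edgeR). Its call was lost in 17 of 46 alternative fits. Its level had medians of 81.4 CPM in FAD hippocampus against 48.2 CPM in WT hippocampus, and of 45.8 CPM in FAD cortex against 19.3 CPM in WT cortex. It rose in both regions, by 0.70 ± 0.14 in hippocampus and 1.37 ± 0.15 in cortex. In CPM the FAD mice exceeded the WT mice by 29.1 in hippocampus and 28.1 in cortex, so that the sign of the difference between regions turned on that scale.

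**Figure D3:**
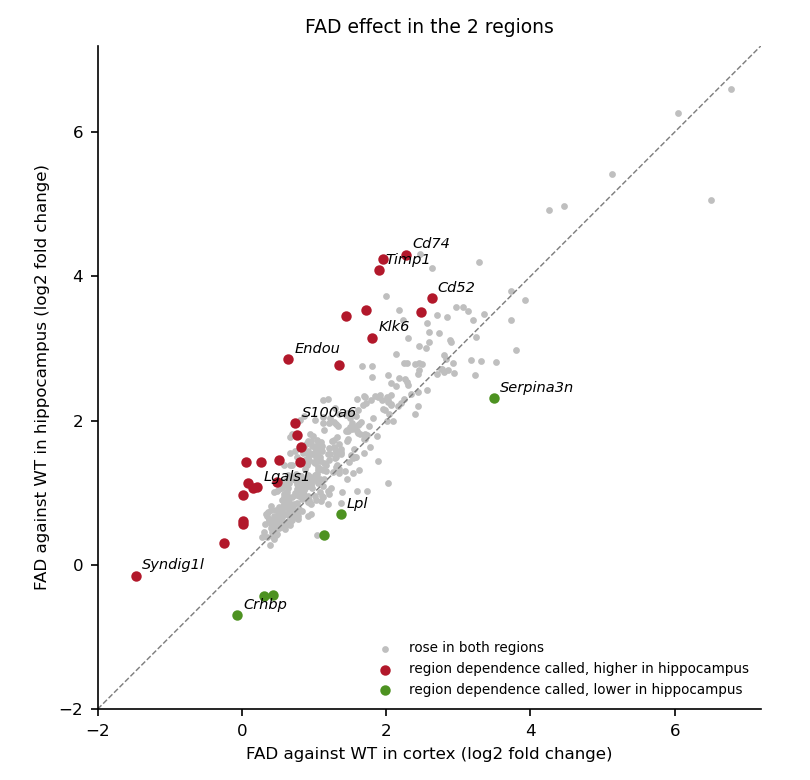
FAD against WT as a log2 fold change in hippocampus (vertical) and cortex (horizontal), with the 445 genes that rose in both regions in grey and the called genes in red (higher in hippocampus) or green (lower). The dashed line marks equal effects; Abhd11os, not tested in hippocampus, is not drawn. Endou lies far above the line with a small cortical effect, Serpina3n below it with large effects in both regions, and Syndig1l at a negative cortical effect.

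Genes of reactive astrocytes moved both ways. Of 28 list genes 21 were tested, with 4 called higher and 1 called lower, beside 0.203% and 0.045% of all genes tested, and a median of 0.44. Serpina3n, a secreted inhibitor of serine proteases, was the lower one. Its level was 65.1, 98.6 and 172 CPM in FAD hippocampus and 10.7, 21.5 and 23.2 CPM in WT hippocampus, and 38.4, 73.3 and 136 CPM in FAD cortex and 2.89, 7.14 and 12.6 CPM in WT cortex. All FAD wells lay above all WT wells of the same region. The rise was 2.31 ± 0.16 in hippocampus and 3.49 ± 0.26 in cortex, and the region dependence -1.14 ± 0.19 (adjusted p = 0.00108, edgeR). In CPM its rise was 80.0 in hippocampus and 69.4 in cortex, the reverse order. It has close paralogues, so its counts are uncertain where reads match several of them.

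Timp1, an inhibitor of metalloproteinases, was higher in hippocampus by region dependence (2.11 ± 0.47, adjusted p = 0.0306, edgeR), with medians of 5.71 CPM in FAD hippocampus and 0.492 CPM in WT hippocampus, beside 4.72 CPM in FAD cortex and 1.23 CPM in WT cortex. It held no count in 2 WT hippocampus wells, and all 8 together held 12 counts. Aspg, an asparaginase chosen after its values were seen, had 2.21 ± 0.49 (adjusted p = 0.0306, edgeR), with 11 counts over the 8 WT hippocampus wells. S100a10, the partner of annexin A2, had 0.59 ± 0.14 (adjusted p = 0.0448, edgeR), and did not pass in either region alone. Over 46 alternative fits the call was lost in 24 for S100a10, 17 for Aspg, 16 for Timp1, 3 for Srgn and 2 for Serpina3n. The intermediate filament gene Gfap rose by 2.63 ± 0.13 in hippocampus and 3.23 ± 0.18 in cortex, and its region dependence of -0.55 ± 0.15 did not pass edgeR's test (adjusted p = 0.111). The water channel Aqp4 stood at 0.19 (interval -0.15 to 0.54). Lcn2, a secreted lipid-binding protein, was at a median of 4.18 CPM in FAD hippocampus against 0.105 CPM in WT hippocampus. It had a wide interval for region dependence, -0.60 to 3.38. It held 13 counts over the 8 WT hippocampus wells and 7 over the 8 WT cortex wells, with none in 4 wells of each.

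S100a6, a calcium-binding protein, and Lgals1, a lectin that binds beta-galactosides, did not overlap between genotypes in hippocampus or in hippocampus minus cortex, while their cortical levels overlapped. S100a6 was at 72.1, 152 and 192 CPM in FAD hippocampus and 12.8, 40.1 and 44.3 CPM in WT hippocampus, and at 81.5, 131 and 152 CPM in FAD cortex and 56.8, 73.6 and 90.9 CPM in WT cortex. Its region dependence was 1.24 ± 0.15 (adjusted p = 2.45e-06, edgeR). Lgals1 rose in hippocampus, with 177, 222 and 277 CPM in FAD mice against 57.6, 107 and 134 CPM in WT mice. In cortex it was at 109, 140 and 159 CPM in FAD mice and 100, 117 and 124 CPM in WT mice, a change of 0.21 ± 0.08 that did not pass (adjusted p = 0.12, edgeR). The region dependence of Lgals1 was 0.88 ± 0.13 (adjusted p = 0.00011). The lowest WT hippocampus value of each came from the well of high ribosomal RNA share, and without that mouse the values were 1.16 for S100a6 and 0.81 for Lgals1, both called.

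Gsn, which severs actin filaments, was also called higher, at 0.70 ± 0.13 (adjusted p = 0.00297, edgeR). Among the genes chosen after their values were seen, Fxyd1, a regulator of the sodium pump, had 0.67 and the membrane protein Emp3 had 1.35. Arhgap25 had 1.18, and Sfrp5, a secreted Wnt antagonist, had 1.91. Hippocampal levels of Emp3 and Arhgap25 overlapped between genotypes. Sfrp5 held 12 counts over the 8 WT hippocampus wells. Over 46 alternative fits the call was lost in 27 for Sfrp5, 14 for Fxyd1, 13 for Arhgap25 and 4 for Emp3. Gpx1, a glutathione peroxidase, had 0.58 and Gng5, a G-protein gamma subunit, had 0.57. Without WT PBS replicate 9 the values of Gpx1 and Gng5 were 0.54 and 0.49 and no longer passed (adjusted p = 0.0662 for each, edgeR).

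Ighm, the heavy chain constant region of IgM, was at 12.6, 41.3 and 56.6 CPM in FAD hippocampus and 8.64, 22.2 and 29.8 CPM in WT hippocampus. In cortex its level was 51.9, 85.4 and 119 CPM in FAD mice and 69.3, 79.5 and 102 CPM in WT mice. The cortical range of the WT mice lay within that of the FAD mice. Its region dependence was 0.95 ± 0.15 (adjusted p = 0.00049, edgeR), with a cortical effect of 0.01 ± 0.12. The alpha globins Hba-a2 (1.08 ± 0.18, adjusted p = 0.000971) and Hba-a1 (0.90 ± 0.20, adjusted p = 0.0484) were called as well. These are near-identical gene copies of red blood cells, and their reads may not be told apart. The summed level of 5 globin and haem genes had a median of 180 CPM in FAD hippocampus against 68.3 CPM in WT hippocampus, and 280 CPM in FAD cortex against 197 CPM in WT cortex, with overlapping ranges. With the globin sum as a covariate 14 genes were higher and 3 lower, and 15 of the 33 stayed called.

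Syndig1l and Abhd11os fell in cortex. Syndig1l, a relative of a synapse differentiation protein enriched in striatum, was at 3.03, 4.44 and 6.9 CPM in FAD hippocampus and 4.01, 5.61 and 6.15 CPM in WT hippocampus, levels that overlapped. In cortex it was at 3.26, 13.7 and 30.5 CPM in FAD mice and 27.6, 34.9 and 52.7 CPM in WT mice. It fell in cortex by 1.47 on the log2 scale (adjusted p = 0.0235, edgeR), which gave a region dependence of 1.30 ± 0.28 (adjusted p = 0.0306). Abhd11os, a transcript from the opposite strand of Abhd11, had 1.49 ± 0.26 (adjusted p = 0.00155) and fell in cortex by 0.81. It was not tested in hippocampus alone, where its medians were 2.89 CPM in FAD mice and 1.95 CPM in WT mice, with overlapping ranges. Abhd11 itself had a region dependence of 0.10 ± 0.15. The sources used here do not say whether counting used strand, and reads of the pair may not be told apart.

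All 13 tested striatal markers of 17 listed had a region dependence above 0, where 46.6% of all genes did. Their median was 0.55, and 1 of 13 was called, beside 0.248% of all genes tested. In cortex 10 of the 13 fell and in hippocampus 0 of 11, where 4.63% and 1.81% of all genes tested fell. The summed level of the markers in cortex ran from 279 to 856 CPM with a median of 559 in FAD mice. In WT mice it ran from 661 to 1030 CPM with a median of 772. In hippocampus the medians were 160 CPM in FAD mice and 157 CPM in WT mice. All 17 markers had counts. With this sum (without Syndig1l) as a covariate, 9 genes were called higher and 1 lower. Endou (2.12), S100a6 (1.22), Lgals1 (0.83), Ighm (0.87), Hba-a2 (1.27), Cd52 (1.14), Spp1 (1.08), Klk6 (1.27), Srgn (1.09) and Serpina3n (-1.27) stayed called. Cd74 had 2.03 and lay just above the threshold (adjusted p = 0.05 after rounding, edgeR, in a range of 1.84e-05 to 0.0804 over its 46 alternatives). Syndig1l stood at 0.60 under this covariate (adjusted p = 0.598, edgeR), and over its alternatives the adjusted p ran from 0.00218 to 0.598. Abhd11os stood at 1.33 (adjusted p = 0.0584, edgeR), in a range of 0.000163 to 0.145. Neither stayed called. All 33 kept their direction.

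**Figure D4:**
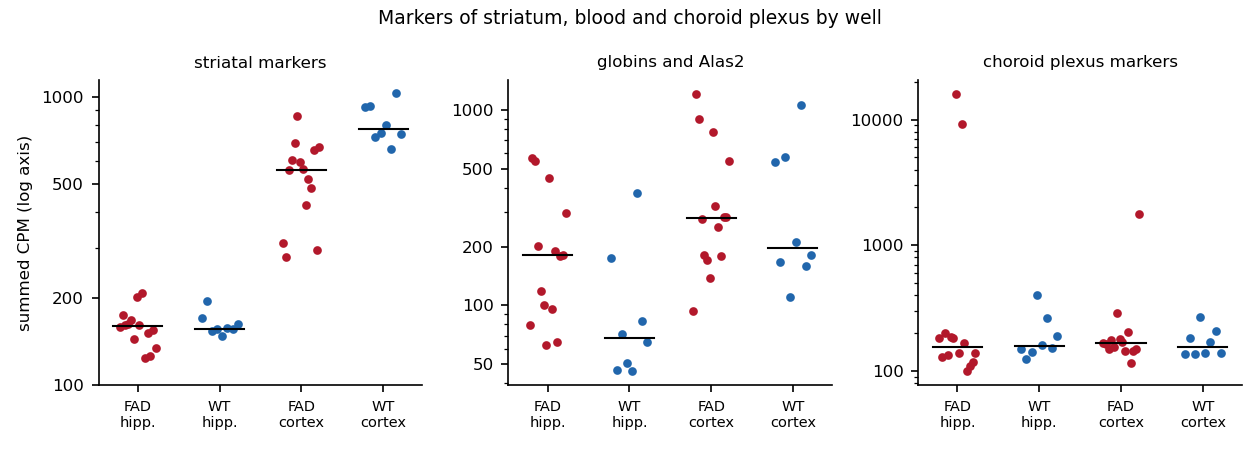
Summed CPM on log axes of striatal markers (17 genes), globin and haem genes (5) and choroid plexus markers (13) in each well, with a line at the median of each group. Striatal sums are lower in FAD than in WT cortex (medians 559 and 772 CPM), while FAD wells reach choroid plexus sums of 16000 and 9140 CPM in hippocampus and 1770 CPM in cortex.

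The other called genes of lower region dependence were of neurons or of less known function. Crhbp, which binds corticotropin-releasing hormone, fell in hippocampus, with 12.5, 20.6 and 27.0 CPM in FAD mice and 31.0, 33.3 and 39.6 CPM in WT mice. The hippocampal groups did not overlap. In cortex it was at 13.3, 21.8 and 33.7 CPM in FAD mice and 18.4, 21.7 and 31.3 CPM in WT mice. The region dependence was -0.63 ± 0.14 (adjusted p = 0.0263, edgeR), and 12 of 14 FAD mice lay below every WT mouse. It was the only called gene of the 20 inhibitory neuron genes, beside 0.045% of all genes called lower. The median of that list was -0.19. Gm5124, a predicted gene, had -0.87 ± 0.16 (adjusted p = 0.00297) and rose in cortex by 0.43. Ccdc6, a coiled-coil protein, had -0.65 ± 0.14, and Rbm24, which binds RNA, -0.77 ± 0.18 (adjusted p = 0.0448, edgeR). Rbm24 stayed called in 14 of 46 alternatives. The call was lost in 16 of the 46 for Crhbp and in 14 for Ccdc6. The excitatory neuron list had 2 of 15 genes above 0 with a median of -0.23, and the hippocampal marker list 6 of 18 with a median of -0.28. Neither had a called gene. Over all genes tested 46.6% were above 0, with a median of -0.02.

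Several lists lay to one side of 0 without a called member, which was not tested for a list as a whole. Over all genes tested 46.6% were above 0, with a median of -0.02. All 22 tested interferon response genes of 28 listed were above 0, with a median of 0.47. Of these 20 of 20 rose in hippocampus and 18 of 21 in cortex, where 5.75% and 5.57% of all genes tested rose. The 8 interferon-induced GTPases tested were also all above 0, with a median of 0.35. Usp18, which removes the ubiquitin-like protein ISG15, had 0.81 ± 0.39 (adjusted p = 0.372, edgeR) and the transcription factor Irf7 0.75 ± 0.31 (adjusted p = 0.312). All 20 homeostatic astrocyte genes were above 0 with a median of 0.19. These counts held with RLE factors and with DESeq2.

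Nuclear-encoded subunits of the respiratory chain pass electrons and make ATP in mitochondria. Of 69 tested, 1 fell in hippocampus and 38 fell in cortex, and none rose in either. Over all genes tested 1.81% fell in hippocampus and 4.63% in cortex. For region dependence itself 0 of the 69 were called, 53 were above 0 and the median was 0.27. Over all genes tested 46.6% were above 0, with a median of -0.02. Ndufa1 of complex I had 0.51 ± 0.17 (adjusted p = 0.201, edgeR), with -0.42 in cortex and 0.09 in hippocampus. Of the 11 mitochondrially encoded genes tested, 6 fell in cortex and 0 in hippocampus, and 9 were above 0. A difference between regions was thus not shown for any single subunit by its own test.

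**Figure D5:**
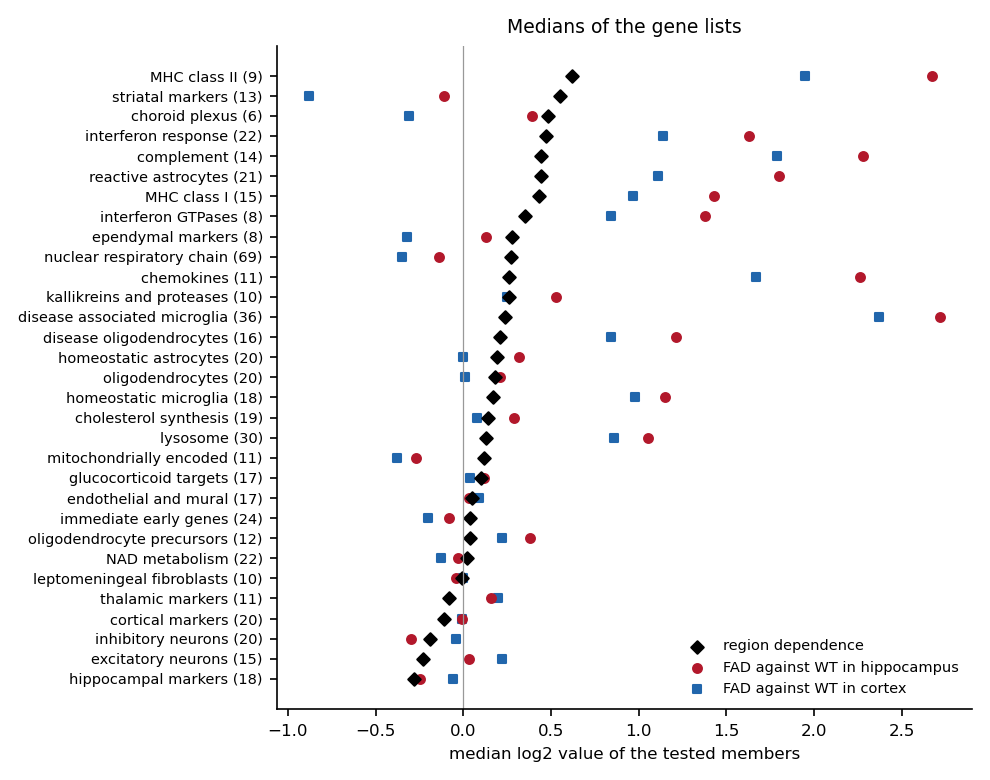
Median log2 value of the tested members of each gene list (number of genes in brackets) for region dependence (black diamonds), FAD against WT in hippocampus (red circles) and in cortex (blue squares). The MHC class II list has the highest median region dependence (0.62) and the hippocampal markers the lowest (-0.28); striatal markers stand at -0.88 in cortex and -0.11 in hippocampus.

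Most genes that rose in hippocampus also rose in cortex, and most that rose in cortex also rose in hippocampus. In hippocampus 724 genes (5.75%) rose and 228 (1.81%) fell of 12587 tested, together 7.56%. In cortex 708 (5.57%) rose and 588 (4.63%) fell of 12710, together 10.2%. The 445 genes that rose in both are 61.5% of those in hippocampus and 62.9% of those in cortex, and no gene had opposite calls. Of the 445, 16 were called higher and 2 lower for region dependence, beside 0.203% and 0.045% of all genes tested. Their median region dependence was 0.24, beside -0.02 over the 12266 genes tested in all 3 fits. The 95% interval lay within 1 log2 unit of 0 for 310 of the 445 (69.7%), beside 94.4% of the 12266. The 27 higher genes divided into 16 that rose in both regions, 6 that rose in hippocampus with no call in cortex, 3 called in neither, Syndig1l and Abhd11os. Among 784 genes called in cortex and not in hippocampus, 1 was called higher and 1 lower for region dependence, so a call in one region did not amount to a difference between them.

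The level of the called genes in each region is given as a description, since it comes from the fit that called them. No share over all genes tested is given beside these counts, so they are not read as a trait of the called genes. In WT mice 25 of the 27 higher genes were higher in cortex and 0 in hippocampus. In FAD mice 8 of the 27 were higher in cortex and 9 in hippocampus. Of the 6 lower genes, 3 were higher in hippocampus in FAD mice and 5 in WT mice. On the CPM scale all 27 higher genes kept the sign of the difference and 4 of the 6 lower ones did.

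The region dependence of the 2 FAD groups did not differ at the threshold. Comparing FAD CD38 with FAD IgG mice, 0 of 13331 genes were called by edgeR or by DESeq2, and 229 (1.72%) had an unadjusted p under 0.05. Both groups were set against the same WT mice, and their values are given side by side. Endou had 2.05 in FAD CD38 and 2.17 in FAD IgG mice, a difference of -0.12 with a 95% interval from -0.56 to 0.31. Klk6 had 1.26 in FAD CD38 and 1.43 in FAD IgG mice (difference -0.17, interval -0.58 to 0.24). Cd74 had 2.03 in FAD CD38 and 2.42 in FAD IgG mice (difference -0.38, interval -0.94 to 0.18), and Cd52 had 1.17 in FAD CD38 and 1.06 in FAD IgG mice (difference 0.10, interval -0.23 to 0.44). These intervals leave room for differences of up to 0.94 between the groups for Cd74. Cd38 itself, the NAD-consuming enzyme, had a region dependence of -0.76 ± 0.25 that did not pass (adjusted p = 0.202, edgeR).

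A permutation of the 22 mice gave p-values that do not use the count model. Over the exact 319770 assignments, the two-sided exact permutation p of hippocampus minus cortex was 3.13e-06 for Endou, the smallest that these assignments can give. It was 6.25e-06 for Cd52, 1.56e-05 for Cd74 and 9.38e-05 for Klk6. These genes were named with earlier results of the data known, so their p-values are a description and not a separate test. By the same permutation Gfap had an exact p of 0.00102, Lcn2 of 0.000794, Cd38 of 0.00289 and Tyrobp of 0.0101. Adjusted over only the 15 genes so tested, these ran from 0.00238 to 0.0189. Over all genes edgeR did not call them, with adjusted p of 0.111, 0.56, 0.202 and 0.226 in the same order. The Lcn2 value rests on few counts, with none in 4 WT wells of each region. App (0.11), the amyloid precursor gene, and Thy1 (0.25), a neuronal surface protein, rose in both regions and did not pass either test for region dependence. The sources used do not say whether transgene reads were counted under these symbols. The values thus do not tell transcripts of the mouse's own genes from those of a transgene.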

How the data were processed

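The authors deposited whole-number raw counts for each gene symbol and well, which total 1270918 to 5101368 per well. bcl2fastq 2.17 and STAR 2.5.3a are named in the submitters' processing notes. Build, annotation, counting program, strand setting and handling of molecular identifiers were not given in the sources used, and counts may hold repeats of a molecule. A GEO sample here joins several mice, so mouse, region and injection of a well came from its name and the deposited sample sheet.

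For region dependence, edgeR 4.0.16 (R 4.3.3; quasi-likelihood with robust dispersion, TMM scaling) was given a term per mouse, a region term and a region by genotype term, because both wells of a pair bear the number of 1 mouse. Genes were kept by filterByExpr (at least 10 counts, 15 in total). Each region alone was fitted with the pool as a covariate. Tests were two-sided, and p-values were adjusted by Benjamini-Hochberg over all genes at 0.05. No wells agreed within sampling noise (lowest chi-square per degree of freedom 2.55). Differences per mouse are log2 CPM with a prior count of 2, and levels are CPM of plain totals. The code was tested on simulated data.

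The members, the 33 gene lists and the alternatives were chosen with earlier results of these data known. Named genes were the 12 of smallest p in each direction among called genes, 4 genes named with the comparison, up to 3 of smallest p in each list with a called member, and 11 check genes. Alternatives were DESeq2 1.42.0, RLE factors, other filters, limma 3.58.1, no mouse block, region by pool terms, single FAD groups, covariates, and each mouse or pool left out. Promoters came from RefSeq, GRCm38.p6. The result of 1 of the genes tested by permutation is not reported here.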

Additional observations from a re-analysis of the deposited data

Results flagged for a closer look

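The FAD effect differed between hippocampus and cortex by the test of the difference itself for 33 genes, whose log2 region dependence, FAD minus WT, was as follows by edgeR. Secreted, surface and calcium-binding genes included Endou at 2.11, S100a6 at 1.24, Lgals1 at 0.88, Klk6 at 1.36 and Timp1 at 2.11. Others of this kind were Sfrp5 at 1.91, Gsn at 0.70, Fxyd1 at 0.67, Emp3 at 1.35 and S100a10 at 0.59. Immune genes included Ighm at 0.95, H2-T23 at 0.91, Cd52 at 1.11, Spp1 at 1.06, Srgn at 1.06, Lsp1 at 1.41, Cd74 at 2.22, Aif1 at 0.81, H2-Eb1 at 2.17 and Arhgap25 at 1.18. Hba-a2 stood at 1.08, Hba-a1 at 0.90, Abhd11os at 1.49, Syndig1l at 1.30, Gpx1 at 0.58 and Gng5 at 0.57. Aspg was at 2.21. Lower values were those of Serpina3n at -1.14, Gm5124 at -0.87, Rbm24 at -0.77, Ccdc6 at -0.65, Crhbp at -0.63 and Lpl at -0.63.

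In 7 of 156 gene and group combinations a mouse stood apart from the others of its group in hippocampus minus cortex. The rule used for this is set to mark about 5% of such groups by chance. Gsn was at 0.96 in FAD CD38 replicate 2, with the others between 0.04 and 0.22. Gng5 was at -0.31 in FAD CD38 replicate 7, with the others between 0.13 and 0.36. Fxyd1 was at -1.34 in WT PBS replicate 9, whose hippocampus well had 24.1% ribosomal RNA, and Hba-a1 at -3.18 in WT PBS replicate 3. In WT PBS replicate 2 Psmb8 was at 1.21 and Trem2 at 1.10, with the other WT mice at most at 0.05 and 0.18, and Cst7 was at -1.37 in WT PBS replicate 1.

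The FAD mouse of conflicting injection labels is in none of the values above. Counted as FAD, it gave 28 genes higher and 8 lower, with 31 of the 33 still called. Its hippocampus minus cortex was 0.26 for Endou, -0.16 for Klk6, 1.58 for Cd74 and 0.68 for Cd52, each above the highest WT mouse. It lay above the highest WT mouse for 21 of the 27 genes called higher. Of the 6 genes called lower it lay below the lowest WT mouse for 2 and above the highest for 1, Ccdc6, at 1.87 with the WT mice at most at 1.54. No such count is given over all genes tested, so these counts only describe this mouse.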

How the results depend on the processing

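Of the 33 called genes, 5 (Endou, S100a6, Lgals1, Ighm and Cd52) passed under all 46 alternatives with a fit, and all but Hba-a1 kept their direction in each. Genes called higher and lower were 49 and 9 with DESeq2, 51 and 12 with limma voom and a correlated replicate block, and 9 and 1 with no replicate block. They were 13 and 3 with the FAD IgG mice only, and 17 and 1 with the FAD CD38 mice only. Without the mice of a well of high ribosomal RNA share they were 17 and 6, with that share as a covariate 39 and 21, with striatal markers as a covariate 9 and 1, and with globins as a covariate 14 and 3. Leaving out a pool gave 15 and 2 (pool 5), 53 and 15 (pool 6), 16 and 3 (pool 8), 15 and 4 (pool 9), 25 and 13 (pool 10), and 27 and 3 (pool 11). Leaving out each mouse gave 17 to 58 higher and 2 to 32 lower. Counts moved by over 1.5 times without WT PBS replicate 1 (17 and 2), WT PBS replicate 2 (58 and 32) or FAD IgG replicate 7 (47 and 10). The lower count did so without FAD IgG replicate 1 (3), WT PBS replicate 4 (2), 5 (3) or 7 (2), and FAD CD38 replicate 7 (12).

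In cortex the 1296 calls became 818, 670 and 816 without pools 5, 9 and 11, and in hippocampus the 952 became 1464 and 627 without pools 8 and 10. The cause of these moves was not tested, beyond fewer mice in a fit. Directions turned for Hba-a1 with the globin covariate (0.00, which holds that gene), for Serpina3n (10.6) and Lpl (0.95) in CPM, and for Cst7, which was not called, without WT PBS replicates 2 (0.01) or 3 (0.07), in a range of -0.37 to 0.07 over mice left out, and without pools 6 (0.03), 7 (0.11) or 11 (0.01). FAD CD38 minus FAD IgG stayed at 0 calls in each alternative run for it. Genes of a few CPM rest on few counts, as for Timp1 with 12 in all WT hippocampus wells.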

Other observations

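No complement, lysosomal or chemokine gene was called for region dependence, though most of those tested rose with FAD in each region. Over all genes tested 5.75% rose in hippocampus and 5.57% in cortex. Their region dependence was above 0 for 46.6%, with a median of -0.02. Of 14 complement genes tested 11 were above 0, with a median of 0.44, and 12 of 13 rose in hippocampus, while 11 of 13 rose and 1 fell in cortex. C1qb, a chain of the first complement component, had 0.53 ± 0.13 and missed the threshold (adjusted p = 0.0593, edgeR), as did Pex5l at -0.60 (adjusted p = 0.0505) and the lysozyme gene Lyz2 at 0.68 (adjusted p = 0.0631). C4b, also of complement, stood on the other side at -0.48 ± 0.15. Of 29 lysosomal genes tested in each region 21 rose in hippocampus and 20 in cortex. For region dependence 24 of 30 were above 0 with a median of 0.13, led in p by Npc2, which moves cholesterol out of lysosomes (0.42 ± 0.11, adjusted p = 0.105, edgeR). Of 11 chemokine genes 7 rose and 1 fell in hippocampus, and 6 rose in cortex. The chemokine Ccl5 had 0.81 ± 0.40 (adjusted p = 0.38).

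Genes of oligodendrocytes and of cholesterol synthesis had no called member, Klk6 and Serpina3n apart. Of 20 oligodendrocyte genes 15 were above 0 with a median of 0.18, beside 46.6% and -0.02 over all genes tested. In hippocampus 4 of the 20 rose and in cortex 2, where 5.75% and 5.57% of all genes tested rose. Of 16 tested genes of disease-associated oligodendrocytes, Klk6 was called higher and Serpina3n lower, beside 0.203% and 0.045% of all genes tested. In the cholesterol list of 19 tested genes the median was 0.14, and Hmgcs1, an enzyme of the mevalonate pathway, had 0.43 ± 0.11 (adjusted p = 0.0772, edgeR), with a rise of 0.52 in hippocampus and a value of 0.07 in cortex that did not pass. The 24 immediate early genes had a median of 0.04, and the 22 tested genes of NAD metabolism one of 0.02.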
